A study of Mus musculus with 6 samples.

Results

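The 8 genes described here encode enzymes and a transporter of arginine and nitric oxide metabolism (Nos2, Ass1, Asl, Slc7a2, Odc1, Srm, Sat1 and Gch1). They were found by gene symbol among 54532 genes in the RNA sequencing of mouse bone marrow-derived macrophages (BMDMs) that shared a culture with the mouse ovarian cancer line ID8. Before the co-culture the ID8 cells had been exposed to the platinum drug cisplatin at 40 µM in 3 samples, or to phosphate-buffered saline (PBS) in the 3 control samples. The marrow cells came from C57BL/6 mice of 6 to 8 weeks, per the study's methods, which list RPMI medium with serum for these cells, and no genotype, transgene or further agent distinguished the groups. The time of co-culture, whether the cells were in contact and whether ID8 cells were removed before RNA extraction are not given in the sources used here, so a value called BMDM may include RNA of ID8 cells. The study's methods speak of biological replicates in the RNA sequencing, but the sources used here do not say whether the samples of a group came from separate mice or cultures, so p-values measure only the spread between these samples, which may be technical in part.

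Arginine enters macrophages through cationic amino acid transporters and is then shared between competing enzymes. Inducible nitric oxide synthase turns it into nitric oxide and citrulline, a reaction that inflammatory and interferon signals switch on in mouse macrophages and that needs the cofactor tetrahydrobiopterin. Ornithine, which also derives from arginine, is the source of the polyamines putrescine, spermidine and spermine, and citrulline can be rebuilt into arginine. Nos2 is widely used as a marker of classical macrophage activation.

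Values are FPKM (read fragments scaled to gene length and to library depth), which allow levels of different genes to be set side by side. The reads recovered from them ranged from 15776238 to 17924686 per library, and the 8 genes had between 169 and 9877 reads in a library. Pearson correlations ran from 0.984 to 0.989 within groups and from 0.872 to 0.877 across them. The BMDM label was checked against markers. All 12 macrophage markers were detected, with sums of 4239 to 4397 FPKM with cisplatin and 1648 to 1659 FPKM with PBS, and all 12 were higher in every cisplatin library than in any PBS library, although Adgre1 and Csf1r turned lower under an alternative in which the libraries were scaled to equal levels of 4 Y-linked genes. Genes of other cells were present too. The 15 genes listed for ID8 and mesothelial cells summed to 238 to 259 FPKM with cisplatin and to 1321 to 1418 FPKM with PBS, 10 of them lower and 1 higher without overlap and none at 0 in all libraries. The 4 Y-linked genes summed to 41.6 to 42.8 FPKM with cisplatin and 19.5 to 22.7 FPKM with PBS, while Xist went the other way, with 7.57 to 7.94 against 39.0 to 48.8 FPKM. Neutrophil and progenitor markers also differed (9 of 10 higher, sums of 9069 to 9329 against 4805 to 4974 FPKM). So did lymphocyte markers (6 of 9 higher, 264 to 270 against 110 to 117 FPKM). Dendritic cell markers differed as well (5 of 8 higher and 1 lower, 44.6 to 46.9 against 19.1 to 20.5 FPKM). Each of the 7 erythroid markers overlapped between groups, while their sums lay apart (72.1 to 76.7 against 65.0 to 69.1 FPKM). In bulk RNA, fewer cells of a type and less RNA per cell cannot be told apart, and the part of these markers in the differences below was not tested.

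The 8 genes were chosen by pathway and by their FPKM difference between these same cisplatin and PBS libraries, so those differences are given as a description, with no test. Log2 fold changes are on log2(FPKM + 1), which understates the change of low genes, and folds are ratios of group means. Slc7a2, Nos2 and Gch1 were lower when the ID8 cells had been pretreated with cisplatin, Ass1, Odc1, Srm and Sat1 were higher, and Asl overlapped between groups. All 8 genes exceeded 1 FPKM in every library, which was the level asked for in testing. In 4 genes every cisplatin library was above every PBS library, in 3 every one was below, and in 1 the groups overlapped. Among the 13441 genes tested across the genome, 35.2% were separated upwards, 37.2% downwards and 72.4% in either direction. A change of 1 or more in size on the log2 scale was seen in 5 of the 8 genes and in 16.1% of all tested genes. The median over the 8 genes was 0.21 and over all tested genes -0.0011.

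**Figure D1:**
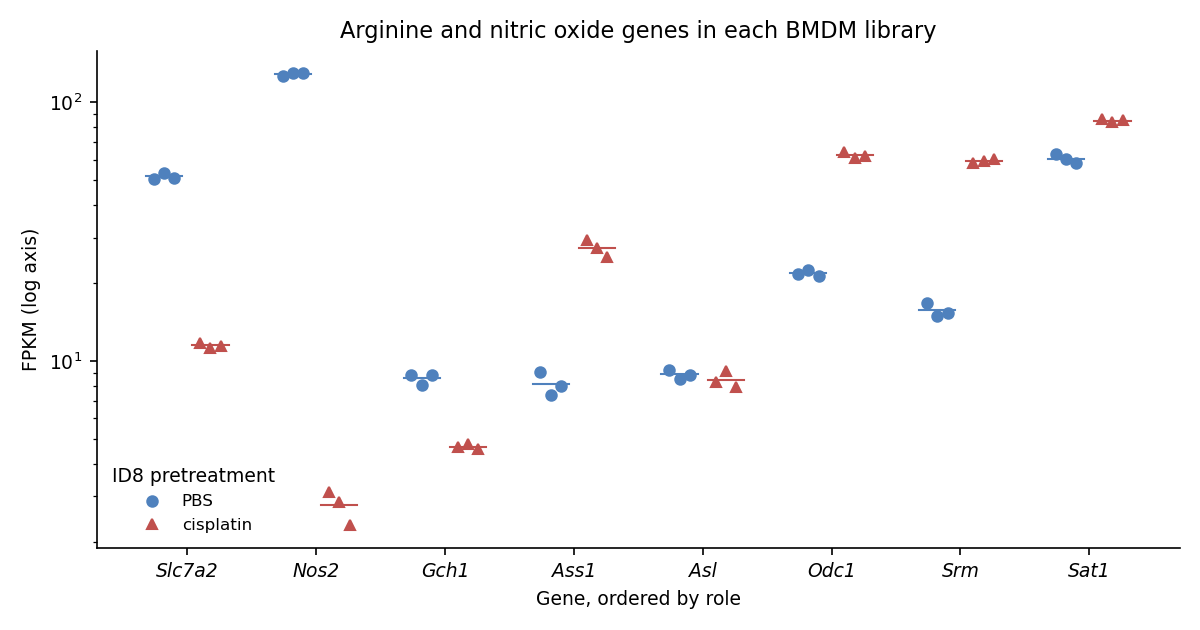
FPKM of the 8 genes in each library, on a log axis, with circles for PBS and triangles for cisplatin and a line at each group mean of 3 libraries. Nos2 lies at 126 to 129 FPKM with PBS and at 2.32 to 3.12 FPKM with cisplatin, and Asl is the only gene whose groups overlap.

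Nos2, the gene of inducible nitric oxide synthase (ENSMUSG00000020826, GRCm38 chromosome 11, 78920787 to 78960254) had 126, 129 and 129 FPKM in the PBS libraries and 3.12, 2.86 and 2.32 FPKM in the cisplatin libraries. All 3 PBS libraries were thus high and all 3 cisplatin libraries low, with 8857 to 9877 reads against 169 to 234. The means of 128 ± 1.70 and 2.76 ± 0.41 FPKM (SD, n = 3 per group) differed 46.5-fold (log2 fold change -5.11, SE 0.079). Only 2 of the 13441 tested genes had a lower log2 fold change. In level, its percentile among tested genes was 97.9 with PBS and 27.1 with cisplatin. Among the 10 tested genes of the ID8 and mesothelial list, the ratio of PBS to cisplatin was at most 12.3. Muc16, of the same list but too low to be tested, had a ratio of 36.2 (means of 0.110 and 0.0030 FPKM). The other untested genes of that list overlapped between groups.

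The arginine transporter gene Slc7a2 (ENSMUSG00000031596, chromosome 8, 40862396 to 40922308), whose product CAT2 supplies arginine to nitric oxide synthesis in activated macrophages, had the next lowest log2 change of the 8 genes. It had 50.7, 53.5 and 51.2 FPKM with PBS and 11.8, 11.2 and 11.4 FPKM with cisplatin. The groups lay far apart compared with the spread within them, with means of 51.8 ± 1.51 and 11.5 ± 0.28 FPKM (SD, n = 3 per group) and a log2 fold change of -2.08 (SE 0.039), or 4.51-fold. Of the 10 tested ID8 and mesothelial genes, 6 had a lower log2 change. Slc7a2 overlaps the non-coding RNA Gm26584 on the other strand, which did not exceed 0.241 FPKM.

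Gch1 (ENSMUSG00000037580, chromosome 14, 47153895 to 47189413) encodes GTP cyclohydrolase, which starts the synthesis of tetrahydrobiopterin. It was at 8.83, 8.08 and 8.82 FPKM with PBS and at 4.64, 4.76 and 4.57 FPKM with cisplatin, so that it moved in the same direction as Nos2 but by far less. The means were 8.58 ± 0.43 and 4.66 ± 0.098 FPKM (SD, n = 3 per group, with a log2 fold change of -0.76, SE 0.054). The transporter, the synthase and the cofactor enzyme were therefore all lower with cisplatin, by 4.51, 46.5 and 1.84 times, and the ratio of Nos2 to Slc7a2 within a library went from 2.42 to 2.53 with PBS to 0.203 to 0.265 with cisplatin.

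Ass1 and Asl encode argininosuccinate synthase and argininosuccinate lyase, the enzymes that rebuild arginine from the citrulline that nitric oxide synthesis releases. Ass1 (ENSMUSG00000076441, chromosome 2, 31470207 to 31520672) had 9.06, 7.39 and 7.99 FPKM with PBS and 29.3, 27.3 and 25.4 FPKM with cisplatin. It was thus higher in all 3 cisplatin libraries, 3.36-fold in the means (8.15 ± 0.84 and 27.3 ± 1.97 FPKM, SD, n = 3 per group, with a log2 fold change of 1.63, SE 0.082), the opposite of Nos2. Asl (ENSMUSG00000025533, chromosome 5, 130011258 to 130029247) had 9.27, 8.53 and 8.86 FPKM with PBS and 8.28, 9.11 and 7.96 FPKM with cisplatin, and the groups overlapped. Its log2 fold change of -0.07 (SE 0.061) was about the size of its error and turned to 0.01 with limma voom on the recovered reads and to 0.04 with quantile normalisation. The ratio of Ass1 to Asl within a library went from 0.867 to 0.977 with PBS to 3.0 to 3.54 with cisplatin, so that the enzymes were at similar levels in the control libraries and unequal in the others.

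**Figure D2:**
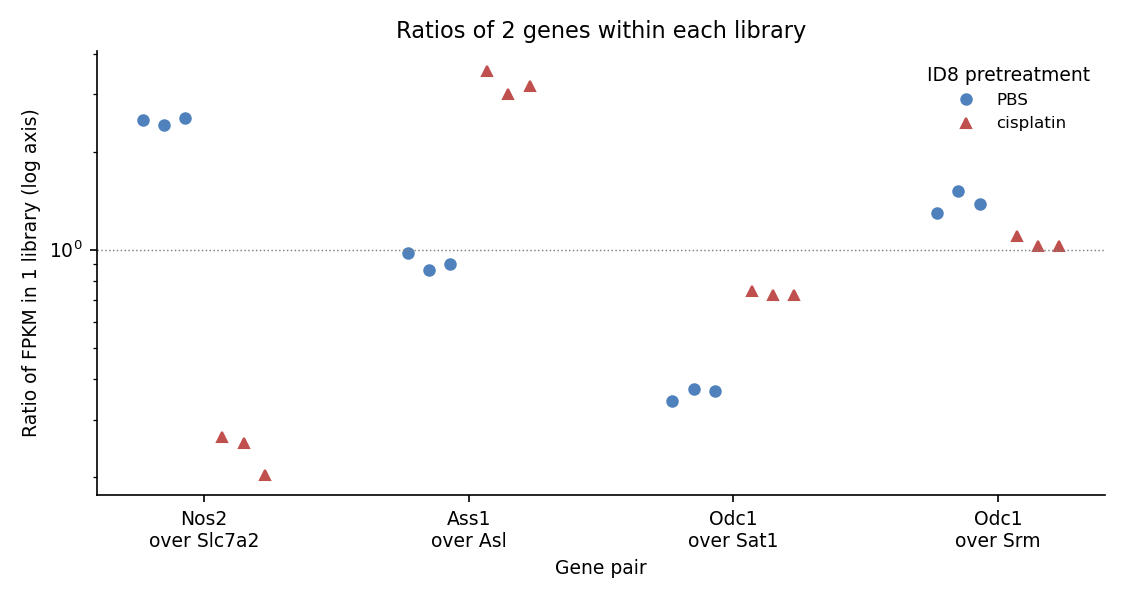
Ratio of the FPKM of 2 genes within each library, on a log axis, with circles for PBS, triangles for cisplatin and a dotted line at equal levels. The ratio of Nos2 to Slc7a2 lies at 2.42 to 2.53 with PBS and at 0.203 to 0.265 with cisplatin, and that of Ass1 to Asl at 0.867 to 0.977 and at 3.0 to 3.54.

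The genes described for polyamines, 2 of synthesis and 1 of breakdown, were higher with cisplatin. Odc1 (ENSMUSG00000011179, chromosome 12, 17544794 to 17551505) encodes ornithine decarboxylase, which makes putrescine, and had 21.7, 22.6 and 21.3 FPKM with PBS and 64.3, 60.7 and 62.1 FPKM with cisplatin. All 3 cisplatin libraries were near 3 times the PBS level, with means of 21.9 ± 0.63 and 62.3 ± 1.79 FPKM (SD, n = 3 per group), 2.85-fold apart (log2 fold change 1.47, SE 0.039). Srm (ENSMUSG00000006442, chromosome 4, 148591503 to 148594993), which encodes spermidine synthase, had 16.8, 14.9 and 15.4 FPKM with PBS and 58.3, 59.4 and 60.5 FPKM with cisplatin. It had the highest log2 change of the 8 genes and was 3.78-fold higher (15.7 ± 0.98 and 59.4 ± 1.10 FPKM, SD, n = 3 per group, with a log2 fold change of 1.86, SE 0.050), and 64 of all tested genes had a higher log2 fold change.

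Sat1 (ENSMUSG00000025283, chromosome X, 155213132 to 155216449) encodes spermidine/spermine acetyltransferase, which starts the breakdown and export of polyamines. It had 63.2, 60.5 and 58.2 FPKM with PBS and 86.1, 83.8 and 85.4 FPKM with cisplatin. The groups did not overlap, but the change of 1.40-fold (60.6 ± 2.49 and 85.1 ± 1.19 FPKM, SD, n = 3 per group, with a log2 fold change of 0.48, SE 0.039) was smaller than those of Odc1 and Srm and turned to -0.50 with scaling by the Y-linked genes, where the median of all tested genes was -0.83. Odc1 was 0.343, 0.373 and 0.367 times Sat1 with PBS and 0.747, 0.725 and 0.726 times Sat1 with cisplatin. Odc1 and Srm moved more nearly together, their ratio going from 1.29, 1.52 and 1.39 to 1.10, 1.02 and 1.03.

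The order of the levels changed accordingly. With PBS the order from high to low was Nos2, Sat1, Slc7a2, Odc1, Srm, Asl, Gch1 and Ass1, of which the last 3 (7.39 to 9.27 FPKM) overlapped in their libraries. With cisplatin it was Sat1, Odc1, Srm, Ass1, Slc7a2, Asl, Gch1 and Nos2. Odc1 and Srm were close, the lowest library of Odc1 being at 60.7 FPKM and the highest of Srm at 60.5 FPKM, while the ranges of other neighbours lay apart. Nos2 thus went from first to last.

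**Figure D3:**
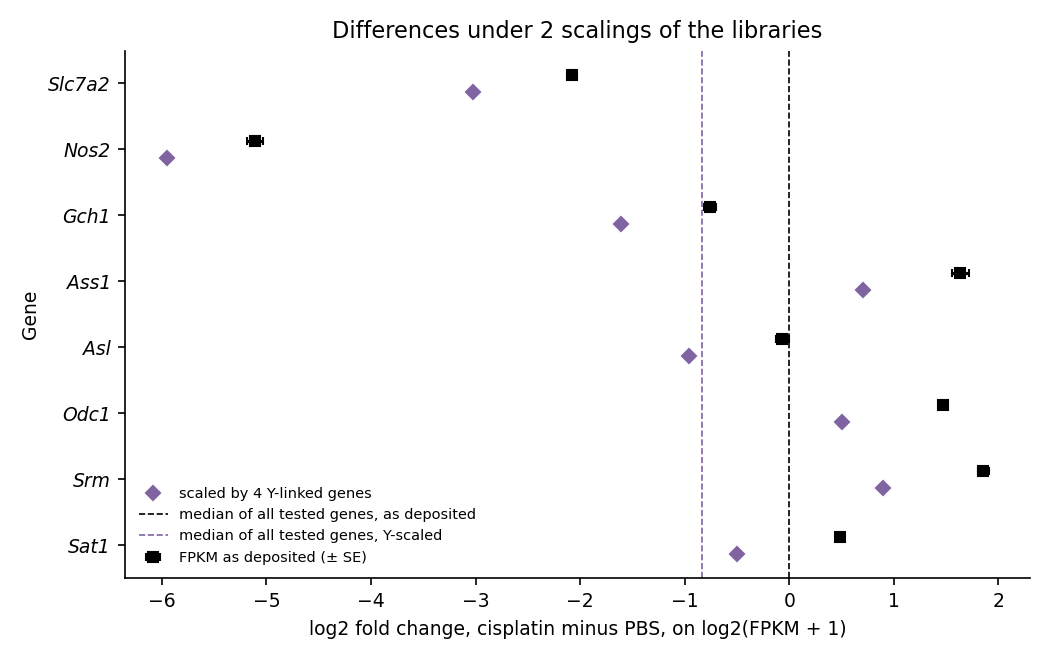
Log2 fold change of the 8 genes, cisplatin minus PBS, on log2(FPKM + 1), with the deposited FPKM (squares, bars are the SE of the fit to 6 libraries) and after scaling by 4 Y-linked genes (diamonds). Dashed lines mark the median of all tested genes, -0.0011 and -0.83, and Sat1 is the gene that crosses 0 between the scalings.

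The direction of 6 of the 8 genes was the same under the 12 alternatives that can change a fold change, the other 4 leaving it as it is by construction. These were Nos2, Slc7a2 and Gch1, lower, and Ass1, Odc1 and Srm, higher. The Y-linked scaling moved the differences most, to 0.89 for Srm, 0.70 for Ass1 and 0.50 for Odc1, all then under 1, and to -0.96 for Asl, -1.61 for Gch1, -3.02 for Slc7a2 and -5.95 for Nos2. Relative to its shift of -0.83 in all tested genes, the log2 changes were 1.73 for Srm, 1.53 for Ass1, 1.33 for Odc1 and 0.33 for Sat1. On the same footing they were -0.13 for Asl, -0.78 for Gch1, -2.19 for Slc7a2 and -5.12 for Nos2. The scaling divides each library by 1 factor, so subtracting its shift largely returns the deposited differences. These relative values are therefore no check of stability.

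Promoter sequences in RefSeq (GRCm38.p6, 250 bases before to 50 after a gene's start) were matched for 4 of the 8 genes by symbol, Ass1, Odc1, Gch1 and Sat1. Those of Ass1 and Odc1, which were both higher with cisplatin, and of Gch1, which was lower, are shown to compare the letters around starts of genes that moved apart. They lie at chr2:31470020-31470319 (plus strand), chr12:17544623-17544922 (plus strand) and chr14:47189364-47189663 (minus strand). The starts differ by 63 bases for Ass1 and 79 bases for Odc1 from those in the deposited table. Capitals mark matches to the motifs searched.
Ass1: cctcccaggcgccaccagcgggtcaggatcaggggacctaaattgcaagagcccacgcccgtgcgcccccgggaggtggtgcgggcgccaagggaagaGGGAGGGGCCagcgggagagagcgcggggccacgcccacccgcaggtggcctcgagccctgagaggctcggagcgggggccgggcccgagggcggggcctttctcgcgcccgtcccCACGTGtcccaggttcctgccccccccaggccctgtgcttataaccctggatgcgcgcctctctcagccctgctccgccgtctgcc
Odc1: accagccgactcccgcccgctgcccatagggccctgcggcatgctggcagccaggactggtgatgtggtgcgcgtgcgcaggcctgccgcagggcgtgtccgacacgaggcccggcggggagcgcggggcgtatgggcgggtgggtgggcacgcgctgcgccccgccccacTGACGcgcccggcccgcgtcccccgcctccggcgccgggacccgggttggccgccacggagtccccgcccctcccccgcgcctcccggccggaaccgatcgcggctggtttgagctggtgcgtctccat
Gch1: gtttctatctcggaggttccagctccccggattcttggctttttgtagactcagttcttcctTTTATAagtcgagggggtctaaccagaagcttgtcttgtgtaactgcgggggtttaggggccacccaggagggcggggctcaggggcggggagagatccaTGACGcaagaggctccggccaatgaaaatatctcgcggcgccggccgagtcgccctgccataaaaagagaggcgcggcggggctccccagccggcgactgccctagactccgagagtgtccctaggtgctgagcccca

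Both strands were searched for 9 motifs, with the share of all 32851 promoters that hold each one. Ass1 held an E-box (CACGTG, in 7.15% of promoters), which contains the core of the hypoxia response element (ACGTG, 19.6%), and a κB-like stretch (20.7%). Odc1 and Gch1 each held the core of a cyclic AMP response element (TGACG, 20.8%), and Gch1 also held a TATA box (TATAAA, 13.6%) on the strand opposite to the gene. None of the 4 windows, Sat1 included, held the interferon-stimulated response element core (3.44%), the STAT sites, whether of the gamma-activated type (TTCNNNGAA, 8.3%) or the STAT6 type (6.95%), or the AP-1 site (TGANTCA, 7.81%). All 4 windows were rich in G and C, with 74% for Ass1, 78% for Odc1 and 60.3% for Gch1 and Sat1 against a median of 52.7% over all promoters, and held 27, 42, 20 and 21 CpG in the same order against a median of 7. These matches describe the letters only.

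The rest of the pathway was examined through 59 further genes in 4 lists, of which 45 reached the level for testing (limma, with calls where the adjusted p was under 0.05 and the log2 change 1 or more in size). Of these, 3 were higher and 5 lower with cisplatin, that is 6.67% and 11.1%, against 4.67% and 11.3% of all tested genes. Their median log2 fold change was 0.07. The share called was thus near that of the genome. With the Y-linked scaling 0 were higher and 11 lower, where 0.632% of all tested genes were called higher and 38.5% lower.

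Among 12 genes of arginine transport and the urea cycle, 7 were tested, 2 rose and none fell (median 0.45). Slc3a2, the heavy chain that several amino acid transporters need at the membrane, rose from 58.3 ± 1.59 to 152 ± 7.07 FPKM (SD, n = 3 per group), a log2 fold change of 1.37 (limma, adjusted p = 4.95e-07). Its partner Slc7a7, part of an exporter of cationic amino acids, rose from 2.58 ± 0.27 to 6.37 ± 0.25 FPKM (SD, n = 3 per group), a log2 fold change of 1.04 (limma, adjusted p = 2.00e-05). Every cisplatin library exceeded every PBS library for both, and both stayed above 0 but short of the fold threshold with scaling by the Y-linked genes (0.38 and 0.25), as did Slc7a7 without PBS replicate 1 (0.98). Slc7a1, the constitutive cationic transporter, named for its place beside Slc7a2 after its values were seen, was at 10.6 ± 0.32 FPKM with PBS and 14.8 ± 0.43 FPKM with cisplatin (SD, n = 3 per group), a log2 fold change of 0.45 (limma, adjusted p = 0.000104), below the fold threshold. In the deposited FPKM, Slc7a2 thus differed in direction from these 3 transporter genes. It did not differ in direction from Slc7a3, a further gene of the list that was too low to be tested. Slc7a3 averaged 0.997 FPKM with PBS and 0.432 FPKM with cisplatin, and its groups did not overlap. Otc and Cps1, the mitochondrial enzymes of the urea cycle in liver, were listed at 0 in all 6 libraries, where 3 reads would give at most 0.0456 and 0.0348 FPKM, a limit that covers counting error only.

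Of 17 genes of tetrahydrobiopterin and nitric oxide handling, 12 were tested, 1 rose and 2 fell (median 0.09), or none and 3 with the Y-linked scaling. The 2 falls were those of Ddah1 and Ddah2, which encode enzymes that degrade methylated arginines, natural inhibitors of nitric oxide synthases. Ddah1 went from 8.45 ± 0.84 to 0.734 ± 0.070 FPKM (SD, n = 3 per group), a log2 fold change of -2.44 (limma, adjusted p = 7.12e-07). Ddah2 went from 14.8 ± 2.60 to 4.70 ± 0.38 FPKM (SD, n = 3 per group), a log2 fold change of -1.46 (limma, adjusted p = 4.14e-05), and both were lower in 3 of 3 cisplatin libraries than in any PBS library. Nostrin, a protein that binds endothelial nitric oxide synthase, rose from 0.873 ± 0.55 to 2.75 ± 0.15 FPKM (SD, n = 3 per group), a log2 fold change of 1.04 (limma, adjusted p = 0.00253). That rise rested on the fold threshold, since it was 0.91 without PBS replicate 1, 0.93 without PBS replicate 2 and 0.44 with scaling by the Y-linked genes. The other nitric oxide synthase genes, Nos1 and Nos3, named for their family after their values were seen, averaged 0.0071 and 0.034 FPKM with cisplatin and 0.013 and 0.114 FPKM with PBS and were not tested.

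Of 19 genes of polyamine synthesis, breakdown and use, 16 were tested, none rose and 2 fell (median 0.04), or 5 with the Y-linked scaling. Azin2, an antizyme inhibitor, fell from 2.65 ± 0.21 to 0.383 ± 0.12 FPKM (SD, n = 3 per group), a log2 fold change of -1.40 (limma, adjusted p = 2.74e-05). Oaz2, an antizyme that targets ornithine decarboxylase for degradation, fell from 21.0 ± 0.82 to 9.93 ± 0.74 FPKM (SD, n = 3 per group), a log2 fold change of -1.01 (limma, adjusted p = 9.45e-06). Both were lower in all 3 cisplatin libraries, but the call of Oaz2 was lost under 5 of 16 other settings, for example without cisplatin replicate 1 (-0.95) and without PBS replicate 1 (-0.98). Sms, which encodes spermine synthase, the step after Srm, was named for that place after its values were seen. It was at 16.0 ± 0.42 FPKM with PBS and 9.06 ± 1.10 FPKM with cisplatin (SD, n = 3 per group), a log2 fold change of -0.76 (limma, adjusted p = 0.000144), below the fold threshold and opposite in sign to Odc1 and Srm.

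Of 11 genes of the proline and creatine branches, 10 were tested, none rose and 1 fell (median 0.03), or 3 with the Y-linked scaling. The 1 gene was Gamt, which encodes the methyltransferase that completes creatine synthesis from arginine and glycine. It went from 25.6 ± 0.76 to 3.21 ± 0.55 FPKM (SD, n = 3 per group), a log2 fold change of -2.67 (limma, adjusted p = 8.08e-07), lower in all 3 cisplatin libraries. The ratios of PBS to cisplatin were 7.99 for Gamt, 11.5 for Ddah1 and 3.15 for Ddah2. Those of the 10 tested ID8 and mesothelial genes ran from 0.598 to 12.3, and a link between them was not tested.

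**Figure D4:**
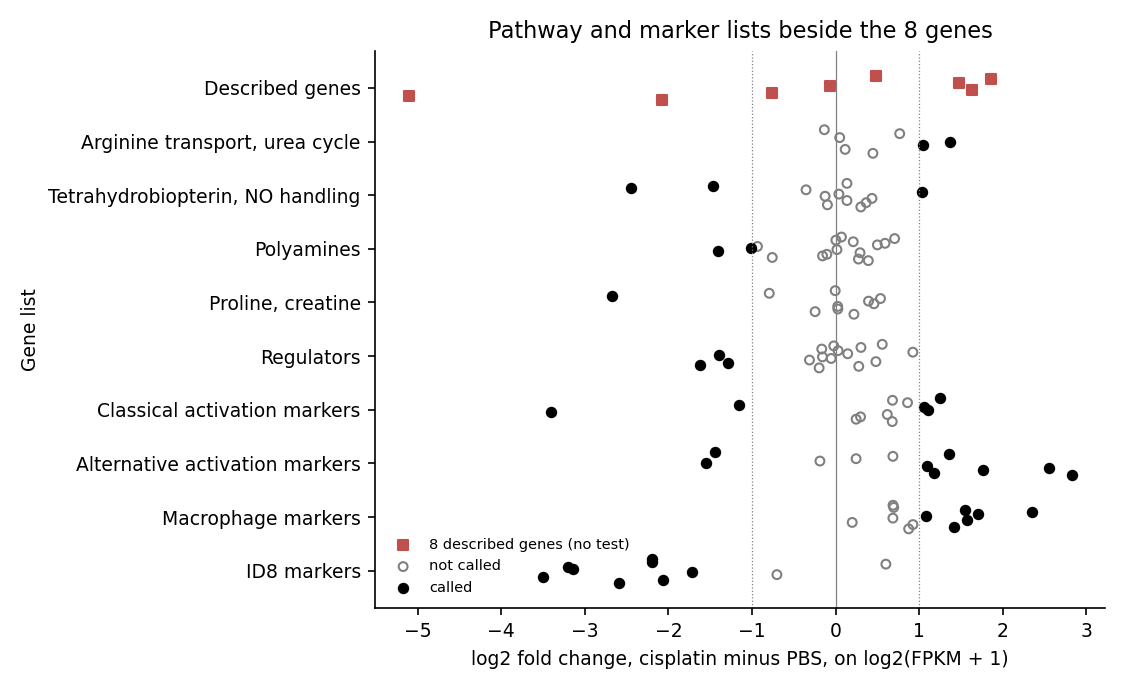
Log2 fold change of each tested gene, cisplatin minus PBS, on log2(FPKM + 1), by list, with filled points for called genes, open points for genes not called and squares for the 8 described genes, which were not tested. Dotted lines mark the fold threshold of 1 in size, and Nos2 at -5.11 lies left of every gene of the lists.

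Known regulators of these genes and the markers commonly used beside them were set next to these values. Of 16 regulators, all tested, none rose and 3 fell (median -0.04), against 4.67% and 11.3% of all tested genes. With the Y-linked scaling 8 fell, against the 38.5% of all tested genes given above for it. Irf1, an interferon-induced factor that Nos2 induction needs in mouse macrophages, fell from 56.0 ± 1.25 to 22.3 ± 0.57 FPKM (SD, n = 3 per group), a log2 fold change of -1.29 (limma, adjusted p = 2.87e-07). Klf4, a factor linked to alternative activation, fell from 74.0 ± 1.37 to 27.6 ± 1.04 FPKM (SD, n = 3 per group), a log2 fold change of -1.39 (limma, adjusted p = 2.81e-07). Both were lower in 3 of 3 cisplatin libraries than in any PBS library.

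Of 14 classical activation markers, 11 were tested, 3 rose and 2 fell (median 0.68). None rose with the Y-linked scaling, where Ciita was at 0.68, or 1.51 above the median of all tested genes. Ciita, the activator of MHC class II genes, rose by 1.25 on the log2 scale (adjusted p = 2.49e-05 with limma, 0.651 ± 0.053 to 2.93 ± 0.32 FPKM, SD, n = 3 per group). Cxcl10 and Ptgs2 fell, with log2 fold changes of -3.41 and -1.15 (adjusted p = 7.29e-08 and 1.83e-06 with limma). Of 15 alternative activation markers, 11 were tested, 6 rose and 2 fell (median 1.09), with 3 rises under the Y-linked scaling, and Retnla was listed at 0 in all 6 libraries, where 3 reads would give at most 0.323 FPKM. Mrc1, the mannose receptor gene, rose from 0.743 ± 0.18 to 11.3 ± 0.44 FPKM (SD, n = 3 per group), a log2 fold change of 2.82 (limma, adjusted p = 4.61e-07). Ccl22 and Ccl17, chemokines of dendritic cells and alternatively activated macrophages, rose by 2.55 and 1.77 on the log2 scale (adjusted p = 5.96e-07 and 6.13e-05 with limma). Ccl17 had few reads, 1 to 5 per library with PBS and 29 to 35 with cisplatin. The 2 falls, named for their direction after their values were seen, were those of Tgm2 and Il10. Their log2 fold changes were -1.55 and -1.44 (adjusted p = 3.17e-06 and 4.94e-05 with limma). The macrophage and dendritic cell marker sums given above were higher in the same libraries.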

How the data were processed

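The deposited table held FPKM for 54532 genes in 6 libraries of poly-T selected RNA, with gene lengths and coordinates. Per the labels, the authors used fastp, HISAT2 2.0.5, featureCounts 1.5.0-p3 and mm10, whereas the study's methods name LifeScope. Strand use in counting is not given in the sources used here. Coordinates of all 8 genes matched GENCODE M21 (GRCm38). FPKM times gene length gave whole reads (tolerance 0.02, 100% of values under 200 reads).

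Genes with at least 1 FPKM in at least 3 libraries (13441) were tested on log2(FPKM + 1) with limma 3.58.1 in R 4.3.3 (eBayes with a trend, group as the only term), with Benjamini-Hochberg adjustment over all of them, and called where the adjusted p was under 0.05 and the log2 change 1 or more in size, the study's thresholds. Fold changes on this scale understate those of low genes. The procedure was checked on simulated data.

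The 8 genes and all lists were chosen with earlier results of these data known. Named from each list were the 3 called genes with the largest change, genes at 5 FPKM or more in 1 group and under 1 in the other, and fixed markers. Some single-gene results are not reported here. The alternatives were a pseudocount of 0.1, filters at 5 FPKM or at any value above 0, TPM, median-of-ratios, quantile and Y-linked scaling, limma voom on recovered reads, eBayes without a trend, a replicate block, and leaving out each library.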

Additional observations from a re-analysis of the deposited data

How the results depend on the processing

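A total of 16 alternatives were compared with the reported fits, and the adjusted p alone was used as a further rule for calls. Against 628 genes higher and 1514 lower over the genome, a pseudocount of 0.1 gave 973 higher, limma voom on the recovered reads 1227 higher and 1861 lower, quantile normalisation 835 higher and 1290 lower, the adjusted p alone 4424 higher and 4721 lower, and scaling by the Y-linked genes 85 higher and 5181 lower. The genome-wide median moved to -0.83 with the Y-linked scaling and to 0.10 with quantile normalisation. Against 3 further pathway genes higher and 5 lower, the adjusted p alone gave 19 and 11 and scaling by the Y-linked genes 0 and 11. Leaving out each library in turn gave 622 to 671 and 1513 to 1531 genes over the genome, and 1 to 3 and 4 to 5 of the pathway genes, the lowest number of rises being found without PBS replicate 1. Their cause was not tested. With scaling by the Y-linked genes, Adgre1 (-0.12), Csf1r (-0.057), Uty (-0.12) and Eif2s3y (-0.25) turned lower, the last 2 being genes that define this scaling.

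The differences of the 8 genes moved by less than the spread within groups in 71 of 96 comparisons with the 12 alternatives that can change them. Leaving out libraries kept Nos2 between -5.18 and -5.02. With a replicate block in the fit, 625 genes were higher and 1515 lower, 622 and 1513 of them also called without the block, and the same 8 pathway genes were called. Equal numbers did not deviate together (correlations of -0.10, -0.086 and -0.024 for replicates 1, 2 and 3), and the deviations of no cisplatin library correlated best with those of its own number. Among the 8 genes the fewest reads were those of Nos2 with cisplatin, at 169 to 234, and genes under 1 FPKM were not tested.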

Other observations

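The genes whose levels followed Nos2 most closely over the 6 libraries were listed by Pearson's r on log2(FPKM + 1), as a description, since all 6 points share the division into groups. These were Fam69a, Cttn and Bicc1, with log2 fold changes of -1.87, -2.22 and -3.12, and 1606 tested genes had an r above 0.99. Likeness over these libraries therefore did not single out a small set of genes.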
